A study of Homo sapiens with 16 samples.

Results

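ANGPTL4, ADM (adrenomedullin), VEGFA, CA9, NDRG1, BNIP3, PLIN2, EGLN3, HIF1A and PFKFB4 are genes of the cellular response to low oxygen. They are 10 of the 58735 genes in each deposited count table and were taken by symbol in both tables. The set was chosen by measured values, because ANGPTL4 and ADM were higher with the YES1 guide in both lines, so their guide differences are described below with no p-value. MDA-MB-231 and SUM159PT are established human triple-negative breast cancer lines. Cells of each line, labelled wild type, were transfected by lipofection with a guide RNA that targets no gene (sgNTS) or with a guide against YES1 (sgYES1), which encodes a Src-family tyrosine kinase, and were collected after 48 h. Each line and guide has 4 libraries of poly-A RNA, 16 in all, which the submitters call technical replicates, so p-values measure only the spread between these samples. Which protein was used together with the guide RNAs is not stated in the sources used here, and each line was grown in its own medium and counted in its own table.

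In cells with enough oxygen, prolyl hydroxylases such as EGLN3 mark the α subunits of the hypoxia-inducible factors (HIF), encoded by HIF1A and EPAS1, for destruction through VHL. When oxygen is low the α subunits persist, pair with ARNT and bind short DNA elements beside genes for glucose use, pH control, mitochondrial turnover, lipid storage and blood vessel growth. HIF activity is set mainly at the level of the protein, which these data do not measure, and ANGPTL4, PLIN2 and VEGFA also answer to other signals: PPAR receptors act on the former pair, and stress pathways act on VEGFA. No sample was labelled as hypoxic.

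Because HIF binds elements with the core ACGTG or GCGTG, both strands of the RefSeq promoter windows (GRCh38.p14, 250 bases before to 50 after the start) were searched for these letters. Of the 10 genes 8 had a window, and 7 of the 8 held at least 1 match, against 48.45% of all 35116 windows of the same length. The former is a count of genes and the latter a share of windows. HIF1A had another window, at chr14:61697462-61697761, which held no match. ACGTG alone was in 21.4% of all windows and GCGTG alone in 36.5%, and a CACGTG would count on both strands. BNIP3 held 6 matches, PLIN2 5, and ANGPTL4, ADM, CA9, HIF1A and PFKFB4 held 1 each. EGLN3 held neither in its window. The 4 sequences below are those of the genes with the largest guide differences for which a window was given, plus CA9, a classical HIF target. Capitals mark ACGTG or GCGTG, or ACGTG read on the other strand (CACGT). ANGPTL4 is shown at chr19:8363905-8364150 on the plus strand, 246 bases before the RefSeq start and outside GENCODE 29 exons, though inside the gene span of the deposited tables, which begins further upstream. PLIN2 is shown at chr9:19127577-19127742 on the minus strand, 166 bases that are likewise outside exons and hold 1 of its 5 matches. ADM (chr11:10304960-10304988) and CA9 (chr9:35673898-35673926), both on the plus strand, are shown as 29 bases around the match, which lies in an annotated exon before the coding sequence. A match is a description of the letters and not evidence of binding.
ANGPTL4: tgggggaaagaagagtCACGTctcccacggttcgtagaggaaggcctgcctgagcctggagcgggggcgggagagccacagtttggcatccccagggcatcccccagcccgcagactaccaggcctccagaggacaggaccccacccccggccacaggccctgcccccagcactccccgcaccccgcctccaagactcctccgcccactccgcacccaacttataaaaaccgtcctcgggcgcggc
ADM: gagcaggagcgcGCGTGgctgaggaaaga
CA9: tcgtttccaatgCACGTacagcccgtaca
PLIN2: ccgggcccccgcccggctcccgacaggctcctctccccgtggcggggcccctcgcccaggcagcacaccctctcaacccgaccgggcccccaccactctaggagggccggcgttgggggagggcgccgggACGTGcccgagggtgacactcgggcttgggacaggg
The ANGPTL4 match begins 234 bases before the start, that of ADM 101 bases, that of CA9 18 bases and the printed one of PLIN2 120 bases.

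Levels are CPM, counts relative to library size scaled by TMM over all 16 libraries, with totals of 17156454 to 25124164 counts per library in MDA-MB-231 and 14352042 to 20884267 in SUM159PT. YES1 itself, the check of the guide, was at 105 to 112 CPM with sgNTS and at 41.2 to 43.7 with sgYES1 in MDA-MB-231, and at 91.4 to 98.3 against 38.8 to 40.3 in SUM159PT. Of the markers that define these lines, PGR had no count in any library, ESR1 reached at most 0.428 CPM, and VIM was at 891 CPM or more in every library. ERBB2, the other marker of this list, was not low, at 91.5 to 116 CPM over all libraries. Markers of other cell types were low with exceptions: PTPRC, which defines leukocytes, was at most 0.486 CPM and CDH5, which defines endothelium, at most 0.192 CPM, while ESAM averaged 105 CPM in MDA-MB-231 sgNTS and COL1A1 56.0 CPM in SUM159PT sgNTS. The summed CPM of 8 leukocyte markers was 8.61 to 9.70 with sgNTS and 12.9 to 14.6 with sgYES1 in MDA-MB-231, mostly CSF1R, and 0.428 to 1.29 against 1.77 to 2.19 in SUM159PT. The sum of 6 endothelial markers was 106 to 113 against 90.3 to 101 in MDA-MB-231 and 7.92 to 8.86 against 6.16 to 11.2 in SUM159PT, and that of 6 fibroblast markers was 23.6 to 28.0 against 31.6 to 33.0 and 73.3 to 78.0 against 72.6 to 96.6. The part of these markers in the results below was not tested. MDA-MB-231 sgNTS replicate 4 had the lowest share of its group from mitochondrial genes, 2.34% of counts against 3.81% to 5.15% in the other 3.

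ANGPTL4 encodes a secreted inhibitor of lipoprotein lipase that also acts on vessels and cell adhesion. In MDA-MB-231 it was at 13.3, 14, 16.8 and 13.8 CPM in sgNTS replicates 1 to 4 and at 50.6, 44.8, 47.1 and 45.6 CPM in those of sgYES1. In SUM159PT it was at 17.3, 19.1, 16.9 and 16.9 CPM with sgNTS and at 50.7, 56.6, 59.7 and 48.1 CPM with sgYES1. Every sgYES1 library of either line lay above every sgNTS library of both lines. The log2 fold change was 1.70 (SE 0.07), or 3.26-fold, in MDA-MB-231 and 1.62 (SE 0.08), or 3.07-fold, in SUM159PT. In MDA-MB-231 120 of 15427 genes tested had a higher log2 fold change, and in SUM159PT 93 of 14479. The SUM159PT effect less the MDA-MB-231 effect was -0.09 (SE 0.11), less than the error.

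ADM encodes adrenomedullin, a secreted peptide that widens vessels and stabilises endothelium. It was at 34.6, 34.8, 32.5 and 35.9 CPM with sgNTS and at 51.4, 47.4, 48.9 and 49.5 CPM with sgYES1 in MDA-MB-231. In SUM159PT it was at 12.6, 12.3, 12.5 and 13.6 CPM with sgNTS and at 37.4, 34.2, 40.2 and 32.7 CPM with sgYES1. The guides did not overlap in either line, and the range of SUM159PT with sgYES1 overlapped that of MDA-MB-231 with sgNTS. The log2 fold change was 0.51 (SE 0.05), or 1.43-fold, in MDA-MB-231 and 1.51 (SE 0.08), or 2.84-fold, in SUM159PT. The SUM159PT effect exceeded the MDA-MB-231 effect by 0.98 (SE 0.09).

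VEGFA, the main growth factor of blood vessels, differed in opposite directions. In MDA-MB-231 it was at 198, 191, 183 and 158 CPM with sgNTS and at 303, 304, 310 and 282 CPM with sgYES1. In SUM159PT it was at 341, 240, 353 and 318 CPM with sgNTS and at 217, 215, 217 and 207 CPM with sgYES1. All 4 sgYES1 libraries were above the controls in MDA-MB-231, and all 4 were below them in SUM159PT, where sgNTS replicate 2 lay closest. The log2 fold change was 0.71 (SE 0.06) in MDA-MB-231. It was -0.54 (SE 0.08) in SUM159PT, or -0.65 without sgNTS replicate 2. Subtracting the MDA-MB-231 effect from the SUM159PT effect gave -1.26 (SE 0.11).

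**Figure D1:**
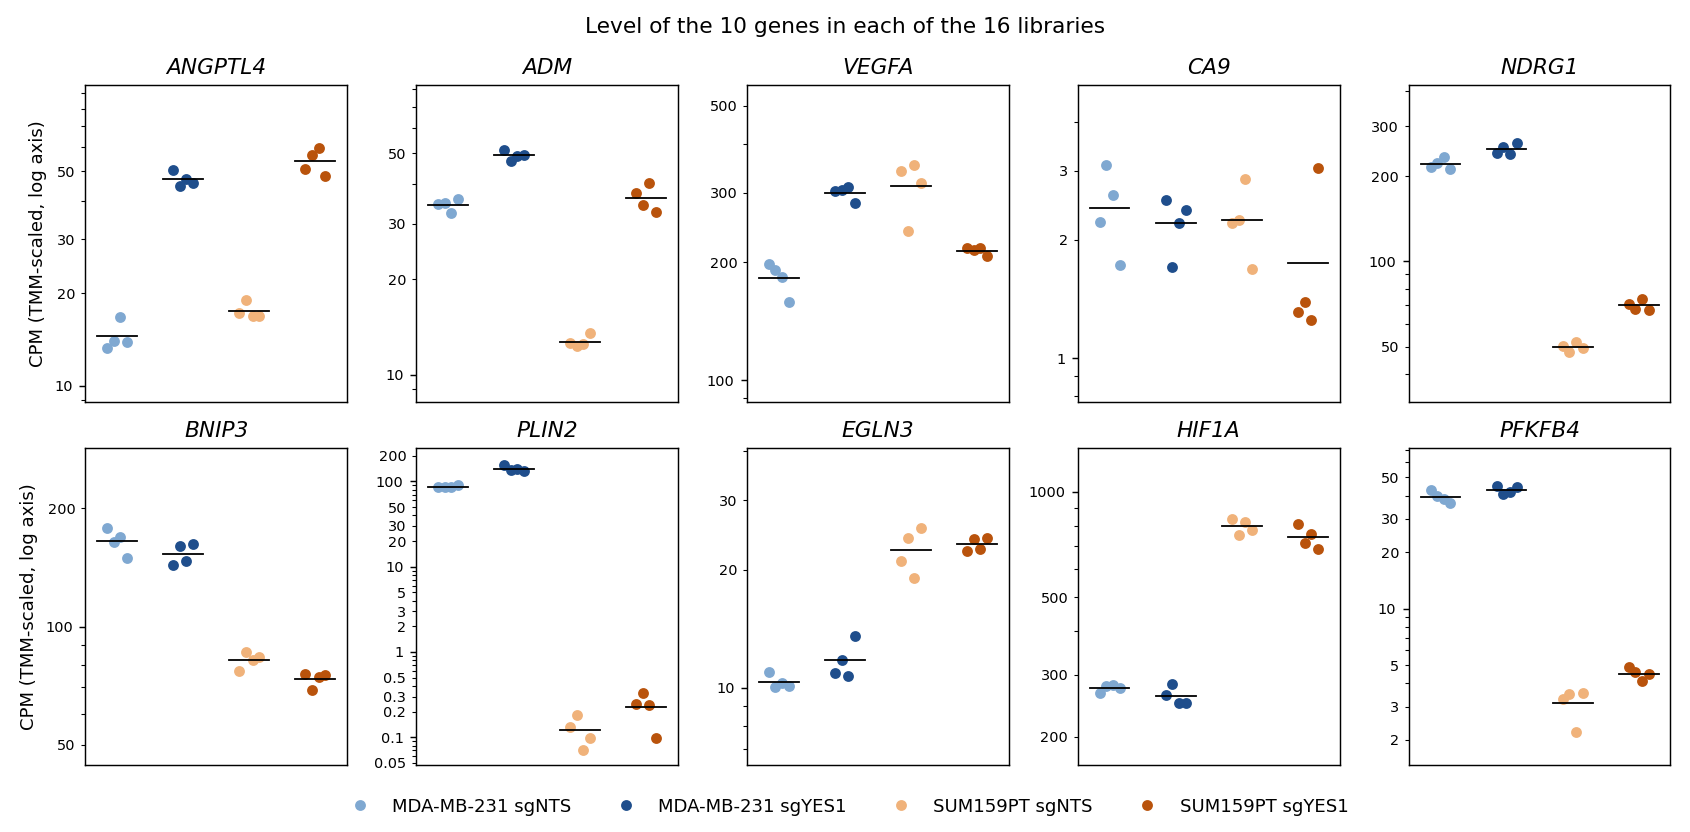
Each point is 1 library and each bar the mean of 4, as TMM-scaled CPM on a log axis whose range differs between panels, with MDA-MB-231 in blue and SUM159PT in orange (sgNTS light, sgYES1 dark). ANGPTL4 lies at 13.3 to 19.1 CPM in all sgNTS libraries and at 44.8 to 59.7 CPM in all sgYES1 libraries, while VEGFA is higher with sgYES1 in MDA-MB-231 and lower in SUM159PT.

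HIF1A encodes the oxygen-regulated subunit of HIF-1. Its level was 266, 279, 282 and 276 CPM with sgNTS and 263, 283, 250 and 249 CPM with sgYES1 in MDA-MB-231, and 834, 752, 818 and 780 against 809, 714, 758 and 685 CPM in SUM159PT. The guides overlapped in both lines. The log2 fold change was -0.08 (SE 0.04) and -0.09 (SE 0.05). EGLN3, the hydroxylase that is itself induced by HIF, was at 10.0 to 11 CPM against 10.7 to 13.5 in MDA-MB-231 and at 19.0 to 25.5 against 22.3 to 24.1 in SUM159PT. Its ranges also overlapped, and its log2 fold change was 0.18 (SE 0.09) and 0.05 (SE 0.08). EGLN3 shares its annotated span with SPTSSA on the same strand, which reached 63.3 CPM, and HIF1A with antisense genes of at most 3.31 CPM, so both levels are uncertain to that extent.

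NDRG1, a cytoplasmic protein linked to differentiation and a frequent hypoxia marker, was slightly higher with sgYES1 in both lines. It was at 215, 222, 233 and 212 CPM with sgNTS and at 241, 254, 240 and 262 CPM with sgYES1 in MDA-MB-231, a log2 fold change of 0.17 (SE 0.04). In SUM159PT it was at 50.2, 47.9, 52.0 and 49.4 CPM against 70.6, 68.1, 73.6 and 67.4 CPM, a log2 fold change of 0.50 (SE 0.05). The guides did not overlap in either line. PFKFB4, which makes the activator of phosphofructokinase, overlapped in MDA-MB-231 at 36.6 to 42.8 against 40.9 to 44.8 CPM. In SUM159PT it was far scarcer, at 3.32, 3.52, 2.21 and 3.56 CPM with sgNTS and 4.90, 4.57, 4.11 and 4.48 CPM with sgYES1, which did not overlap. Its log2 fold change was 0.12 (SE 0.06) in MDA-MB-231, beside 0.51 (SE 0.16) in SUM159PT. PFKFB4 shares its span with UCN2 on the same strand, which reached 24.2 CPM, so part of its reads may be assigned elsewhere.

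BNIP3, which sends mitochondria to autophagy, was at 178, 164, 168 and 149 CPM with sgNTS and at 144, 160, 147 and 163 CPM with sgYES1 in MDA-MB-231, and at 77.1, 86.0, 82.2 and 83.6 against 75.9, 68.8, 74.4 and 75.3 CPM in SUM159PT. The ranges overlapped in MDA-MB-231 and were just apart in SUM159PT, with log2 fold changes of -0.11 (SE 0.05) and -0.15 (SE 0.05). CA9, the carbonic anhydrase of the outer cell surface that responds strongly to HIF, was close to the limit of measurement in every library, from 1.25 to 3.10 CPM. The ranges overlapped in both lines, at 1.73 to 3.10 against 1.71 to 2.52 CPM in MDA-MB-231 and 1.68 to 2.85 against 1.25 to 3.05 CPM in SUM159PT. Its log2 fold change was -0.11 (SE 0.19) and -0.31 (SE 0.27), and the latter was -0.74 without sgYES1 replicate 4, which was at 3.05 CPM while the other 3 were at 1.25 to 1.39. CA9 overlaps ARHGEF39 on the opposite strand, which reached 14.3 CPM, and since the use of strand in the counting is not given, its low level is uncertain.

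PLIN2 coats lipid droplets. In MDA-MB-231 it was at 85.8, 85.3, 85.5 and 90.1 CPM with sgNTS and at 155, 135, 140 and 133 CPM with sgYES1, which did not overlap, with a log2 fold change of 0.69 (SE 0.05). In SUM159PT it had 2, 3, 1 and 2 counts with sgNTS and 5, 5, 4 and 2 counts with sgYES1, too few for the low-count filter, so no fold change is given there.

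**Figure D2:**
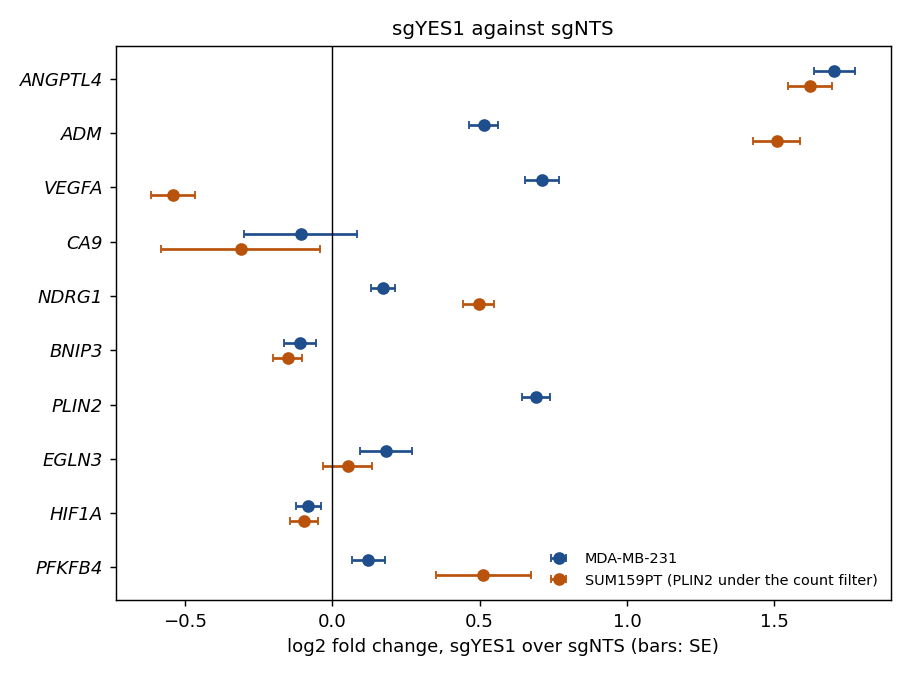
The axis is the log2 fold change of sgYES1 over sgNTS and the bars are its SE, from the edgeR fit of each line, for the 10 genes in MDA-MB-231 (blue) and 9 in SUM159PT (orange). ANGPTL4 lies at 1.70 and 1.62, ADM at 0.51 and 1.51, and VEGFA at 0.71 and -0.54, while HIF1A lies at -0.08 and -0.09 and EGLN3 at 0.18 and 0.05.

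Read as counts, 5 of the 10 genes were past the threshold (edgeR, adjusted p under 0.05) in MDA-MB-231, all 5 higher, where 42.8% of all genes tested were past it, 20.8% higher and 22.1% lower. In SUM159PT 6 of the 9 tested were past it, 4 higher and 2 lower, against 39.4% of all genes, 19.6% higher and 19.7% lower. The guides did not overlap for 5 of 10 genes in MDA-MB-231 (39.2% of all genes) and for 6 of 9 in SUM159PT (35% of all genes). As the rule drew on this contrast, nothing is read from these counts. The median log2 fold change of the members tested was 0.18 and 0.05, beside 0.01 and -0.01 over all genes tested.

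Between the lines themselves, a comparison that the choice of genes did not use, the sgNTS libraries differed for 8 of the 9 genes other than PLIN2, which is given apart. ANGPTL4, VEGFA, EGLN3 and HIF1A were higher in SUM159PT, and ADM, NDRG1, BNIP3 and PFKFB4 were lower. The background is high, since 81.8% of 16640 genes tested differed, 40.5% higher and 41.3% lower, and the lines cannot be told apart from their separate culture and tables. HIF1A was 2.89-fold higher in SUM159PT (log2 fold change 1.53, SE 0.05, edgeR adjusted p = 6.79e-20), and EGLN3 was 2.17-fold higher (1.12, SE 0.09, edgeR adjusted p = 1.69e-11). VEGFA was 1.71-fold higher (0.78, SE 0.08, edgeR adjusted p = 1.41e-09). ANGPTL4 differed least among the called genes, by 1.22-fold (0.29, SE 0.08, edgeR adjusted p = 0.00344).

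In the other direction, PFKFB4 was 12.3-fold lower in SUM159PT (log2 fold change -3.62, SE 0.10, edgeR adjusted p = 9.01e-22) and NDRG1 4.42-fold lower (-2.15, SE 0.05, edgeR adjusted p = 8.83e-24). ADM was 2.70-fold lower (-1.43, SE 0.07, edgeR adjusted p = 3.11e-16) and BNIP3 2.01-fold lower (-1.0, SE 0.05, edgeR adjusted p = 3.66e-15). CA9 did not differ beyond its error (-0.10, SE 0.25, edgeR adjusted p = 0.703). None of these 8 genes changed its call when a library was left out or the scaling was altered. With sgYES1, VEGFA was lower in SUM159PT with no overlap (log2 fold change -0.49, SE 0.08), and ADM was also lower there (-0.45, SE 0.06). These values rest on the sgYES1 libraries that chose the genes and are a description.

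**Figure D3:**
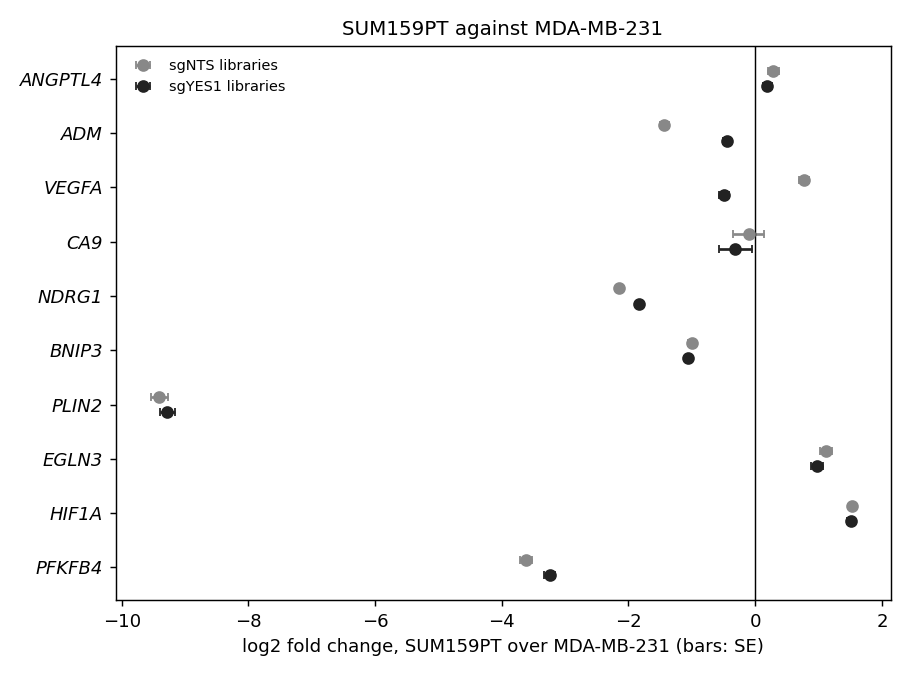
The axis is the log2 fold change of SUM159PT over MDA-MB-231 with its SE, among sgNTS libraries (grey) and among sgYES1 libraries (black), from 1 edgeR fit of all 16 libraries. PLIN2 lies far to the left on a few counts, PFKFB4 and NDRG1 are lower in SUM159PT with either guide, HIF1A and EGLN3 are higher, and VEGFA changes side, from 0.78 to -0.49.

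PLIN2 passed the filter of the joint fit only through MDA-MB-231, so a difference was bound to be found and is given as a ratio. The sgNTS libraries held 7365 PLIN2 counts in MDA-MB-231 and 8 in SUM159PT, which is a 717-fold ratio after scaling (95% interval 364 to 1661, counting error only). With sgYES1 the counts were 11452 and 16, a ratio of 636 (95% interval 391.7 to 1114). The plotted genes nearest to PLIN2 on chromosome 9 were expressed in SUM159PT sgNTS. HAUS6, at a distance of -0.05 megabases, averaged 77.5 CPM, RRAGA 21.5 CPM, DENND4C 23.3 CPM and RPS6 740 CPM. Within 4 megabases, ADAMTSL1 (0.03 CPM against 55.6 in MDA-MB-231) and MLLT3 (no count against 14.4 CPM) were also near 0 in SUM159PT, and CNTLN (no count against 11.5 CPM) and KLHL9 (no count against 6.36 CPM) had no count in MDA-MB-231 sgNTS. These neighbours were chosen after their values were seen. Among the other perilipins, PLIN3 was at 232 CPM in MDA-MB-231 sgNTS and 211 in SUM159PT sgNTS, and PLIN4 was higher in SUM159PT, at 10.2 against 0.93 CPM (edgeR adjusted p = 1.52e-14).

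**Figure D4:**
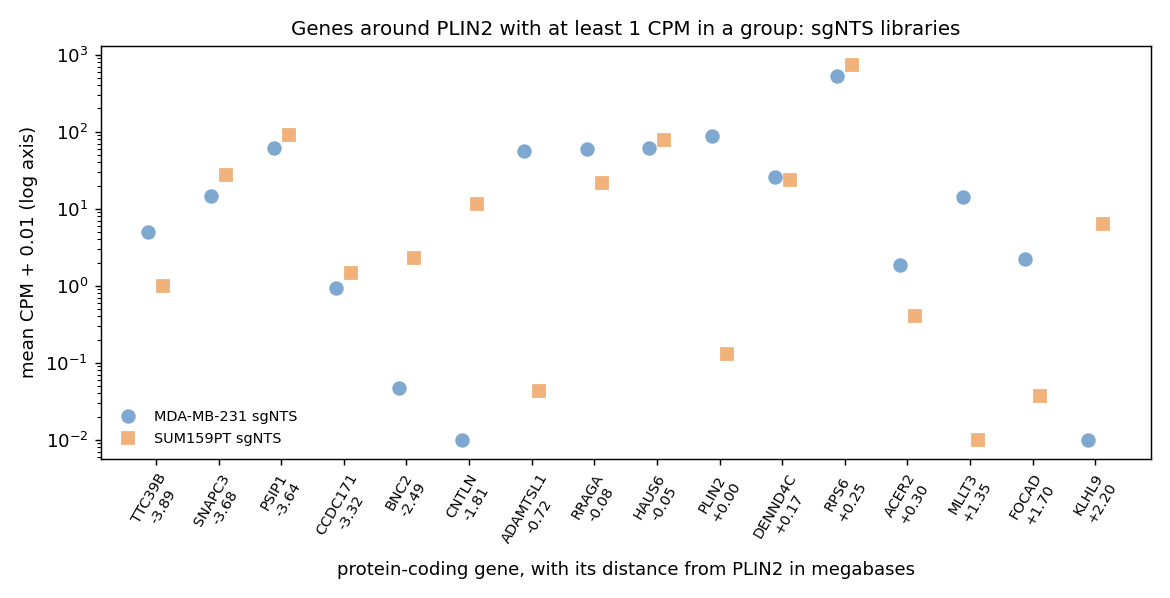
Points are mean CPM of the 4 sgNTS libraries plus 0.01, on a log axis, for protein-coding genes within 4 megabases of PLIN2 that reach 1 CPM in a group, ordered along the chromosome with MDA-MB-231 as circles and SUM159PT as squares. HAUS6 and DENND4C, the nearest plotted genes on either side, are expressed in both lines, while PLIN2, ADAMTSL1, MLLT3 and FOCAD are near the floor in SUM159PT.

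Per kilobase of the deposited gene length, the order of levels also differed between lines. In MDA-MB-231 sgNTS, HIF1A led at 53.5 ± 1.30 CPM per kb (SD, n = 4), then BNIP3 at 31.0 ± 2.25, NDRG1 at 22.4 ± 0.93, PLIN2 at 17.0 ± 0.44, ADM at 12.7 ± 0.52 and VEGFA at 12.6 ± 1.20. PFKFB4 followed at 6.45 ± 0.43, ANGPTL4 at 5.83 ± 0.64, CA9 at 1.44 ± 0.35 and EGLN3 at 1.41 ± 0.06. The SD ranges overlapped for the neighbours ADM and VEGFA, for PFKFB4 and ANGPTL4, and for CA9 and EGLN3. In SUM159PT sgNTS the order was HIF1A at 155 ± 7.24 CPM per kb, VEGFA at 21.7 ± 3.52, BNIP3 at 15.4 ± 0.71, ANGPTL4 at 7.07 ± 0.41, NDRG1 at 5.08 ± 0.17, ADM at 4.69 ± 0.21, EGLN3 at 3.04 ± 0.40, CA9 at 1.35 ± 0.29, PFKFB4 at 0.52 ± 0.10 and PLIN2 at 0.02 ± 0.01. With sgYES1, ANGPTL4 stood at 18.9 ± 1.04 CPM per kb in MDA-MB-231 and 21.7 ± 2.14 in SUM159PT, ADM at 18.1 ± 0.61 and 13.3 ± 1.23, and VEGFA at 20.8 ± 0.83 and 14.8 ± 0.34. On this per-length scale ANGPTL4 was the lowest of these 3 genes in MDA-MB-231 sgNTS, and in SUM159PT sgYES1 it was the highest. The latter rank depends on the deposited length, which is 14431 bases for VEGFA and 2482 for ANGPTL4. In CPM not divided by length, VEGFA was the highest of the 3 in both groups. It averaged 182 CPM in MDA-MB-231 sgNTS and 214 in SUM159PT sgYES1, against 14.5 and 53.8 for ANGPTL4.

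The rest of the HIF pathway did not move with ANGPTL4 and ADM in one direction. Of 84 further genes in 3 lists (machinery, glucose targets and other targets), 81 were tested in MDA-MB-231, where 18 rose, 19 fell and 44 did not pass (edgeR). In SUM159PT 77 were tested, where 15 rose, 27 fell and 35 did not pass. The shares past the threshold were 45.7% and 54.5%, beside 42.8% and 39.4% of all genes, and the median log2 fold change was 0.02 and -0.08, beside 0.01 and -0.01. Scaling by library totals alone gave 23 rises and 16 falls in MDA-MB-231, so that rises were 59.0% of calls in place of 48.6%, and 20 rises and 20 falls in SUM159PT, 50% in place of 35.7%. The same scaling gave rises for 59.8% in place of 48.5% of all genes called in MDA-MB-231, and for 56.7% in place of 49.9% in SUM159PT. Without sgNTS replicate 4, MDA-MB-231 had 20 rises and 19 falls.

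The glucose targets, transporters and enzymes of glycolysis and glycogen, fell in MDA-MB-231 for 10 of 21 genes, where 22.1% of all genes tested fell, and the other 11 did not pass. PGAM1, an enzyme of glycolysis, was at 558 ± 9.27 CPM with sgNTS and 479 ± 10.3 with sgYES1 (SD, n = 4), and fell by 0.22 on the log2 scale (SE 0.03, edgeR adjusted p = 5.18e-05). LDHA, which makes lactate, fell by 0.21 (SE 0.03, edgeR adjusted p = 0.000153), PGK1 by 0.19 (SE 0.03) and GPI by 0.21 (SE 0.03). In SUM159PT 2 of 20 glucose targets rose and 6 fell, beside 19.6% and 19.7% of all genes. PFKFB3, the paralog of PFKFB4 in this list, rose by 0.30 (SE 0.05, edgeR adjusted p = 9.23e-05), the lactate exporter SLC16A3 rose by 0.25 (SE 0.04), PFKL fell by 0.32 (SE 0.05) and PDK1, which holds pyruvate back from mitochondria, fell by 0.41 (SE 0.09).

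Of the HIF machinery 2 of 17 genes rose in MDA-MB-231 and 15 did not pass, so that 11.8% were called beside 42.8% of all genes. EPAS1, which encodes HIF-2α, was at 84.3 ± 5.13 CPM with sgNTS and 132 ± 10.7 with sgYES1, a log2 fold change of 0.65 (SE 0.06, edgeR adjusted p = 1.1e-06). ARNT2, a partner of the α subunits, rose by 0.13 (SE 0.05, edgeR adjusted p = 0.0358), a call that was lost without the low-count filter (edgeR adjusted p = 0.157) and when sgNTS replicate 1 or 2, or else sgYES1 replicate 1, 2 or 3, was left out (edgeR adjusted p up to 0.106). In SUM159PT 3 of 16 rose and 5 fell, 50% beside 39.4% of all genes. EPAS1 rose there by 0.16 (SE 0.04, edgeR adjusted p = 0.00348), less than in MDA-MB-231 by a test of the difference (-0.50, SE 0.07, edgeR adjusted p = 2.13e-05). SIAH2, a ligase that removes prolyl hydroxylases, fell by 0.36 (SE 0.06, edgeR adjusted p = 3.92e-05), CITED2, which competes with HIF for its coactivators, fell by 0.18 (SE 0.05, edgeR adjusted p = 0.00274), and P4HTM, a hydroxylase of the endoplasmic reticulum, fell by 0.21 (SE 0.06). VHL, EGLN1 and EGLN2 did not pass in either line.

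Of the other targets, 16 of 43 rose and 9 fell in MDA-MB-231, and 10 of 41 rose and 16 fell in SUM159PT. The shares called were 58.1% and 63.4%, beside 42.8% and 39.4% of all genes. HMOX1, the heme-degrading enzyme that also answers to oxidative stress, rose in both, from 25.2 ± 0.86 to 73.3 ± 12.2 CPM in MDA-MB-231 (log2 fold change 1.54, SE 0.09, edgeR adjusted p = 2.09e-08) and from 384 ± 16 to 869 ± 109 CPM in SUM159PT (1.19, SE 0.06, edgeR adjusted p = 4.12e-12). LOXL2, which crosslinks collagen, fell in both, by 0.36 (SE 0.03) and by 0.61 (SE 0.05). STC2, a secreted glycoprotein, rose in MDA-MB-231 from a low level, 0.92 ± 0.15 to 4.77 ± 1.33 CPM (2.32, SE 0.23, edgeR adjusted p = 2.25e-06), and was at 416 ± 71.1 against 305 ± 29.3 CPM in SUM159PT. DDIT4, an inhibitor of mTOR signaling, was at 820, 563, 761 and 754 CPM with sgNTS and 161, 189, 165 and 209 CPM with sgYES1 in SUM159PT, and fell by 1.99 (SE 0.09, edgeR adjusted p = 3.96e-13). In MDA-MB-231 it was at 77.6 ± 4.19 against 85.5 ± 3.41 CPM. As for VEGFA, sgNTS replicate 2 was the lowest SUM159PT control for DDIT4 and for STC2.

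Over the 3 lists, the guide effect differed between lines for 35 of 81 genes, more positive in SUM159PT for 13 and more negative for 22 (edgeR, interaction of line and guide), where 24.5% of all genes differed. DESeq2 gave 18 and 20, so that the share of higher calls was 47.4% in place of 37.1%, and over all genes called it was 58.4% in place of 51.7%. Of the 21 glucose targets, 6 were more positive in SUM159PT and the other 15 were not called, a share of 28.6% that is near that of all genes. Of the 43 other targets, 17 were more negative and 5 more positive, a share called of 51.2%. Among the genes named, this difference was -2.75 for STC2 (SE 0.31, edgeR adjusted p = 4.09e-07) and -2.14 for DDIT4 (SE 0.12, edgeR adjusted p = 9.58e-12).

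**Figure D5:**
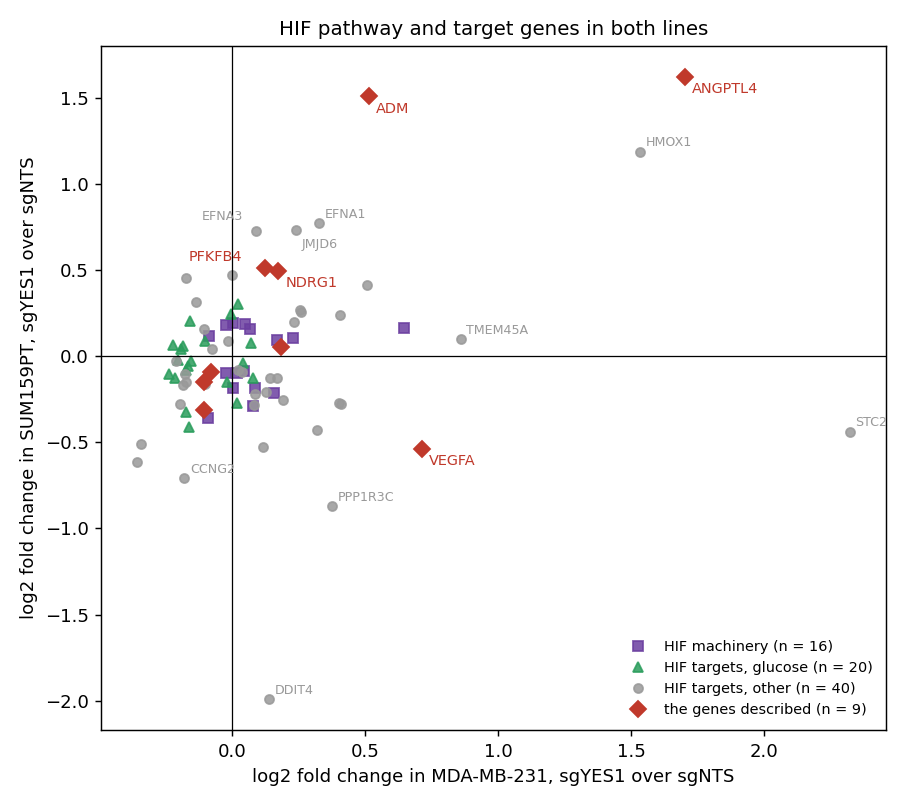
Each point is a gene tested in both lines, with the log2 fold change of sgYES1 over sgNTS in MDA-MB-231 on the horizontal axis and in SUM159PT on the vertical one, and the labelled genes of the HIF lists are past 0.7 in either line, a choice made after their values were seen. ANGPTL4 and HMOX1 lie at upper right, ADM high on the vertical axis, VEGFA and STC2 at lower right and DDIT4 at the bottom, while the glucose targets gather near 0.

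CALCRL, the receptor of adrenomedullin, was near 0 and averaged 0.07 to 0.15 CPM over the 4 groups, and its partners RAMP2 and RAMP3 were at most 0.07 CPM on average. RAMP1, which turns CALCRL into the receptor of a related peptide, averaged 17.4 to 39.9 CPM. Of 12 adrenomedullin partners, 5 were tested in MDA-MB-231 (2 rose, 1 fell) and 6 in SUM159PT (1 rose, 3 fell). The shares called were 60% and 66.7% of these few genes, beside 42.8% and 39.4% of all genes. PAM, which amidates the peptide to its active form, fell in both lines, from 187 ± 5.41 to 151 ± 1.6 CPM (log2 fold change -0.31, SE 0.03, edgeR adjusted p = 5e-06) and from 79.6 ± 3.39 to 60.5 ± 3.81 CPM (-0.39, SE 0.06, edgeR adjusted p = 9.94e-06). ADM2, the related peptide intermedin, rose in MDA-MB-231, from 3.44 ± 0.19 to 7.35 ± 0.95 CPM (1.09, SE 0.12, edgeR adjusted p = 4.38e-06), and was at 1.94 ± 0.49 against 1.27 ± 0.38 CPM in SUM159PT. MME, a peptidase that cleaves adrenomedullin, was at 278 ± 6.42 CPM in SUM159PT sgNTS and at 0.01 CPM in MDA-MB-231 sgNTS.

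Of 9 further VEGF ligands and receptors, 6 were tested in each line, with 3 rises and 1 fall in MDA-MB-231 and 2 rises and 2 falls in SUM159PT. In each line 66.7% of these few genes were called, beside 42.8% and 39.4% of all genes. VEGFC, a growth factor of lymphatic vessels, rose in SUM159PT from 2.22 ± 0.31 to 4.74 ± 0.52 CPM (1.11, SE 0.16, edgeR adjusted p = 1.69e-05), where VEGFA was lower. PGF, placental growth factor, is the other of the 2 rises in SUM159PT, from 0.36 ± 0.14 to 1.85 ± 0.32 CPM (2.38, SE 0.31). It passed the low-count filter there only through the sgYES1 libraries, so only a rise could be called and its values are a description. The coreceptor NRP1 rose in MDA-MB-231 by 0.13 (SE 0.04, edgeR adjusted p = 0.0131) and fell in SUM159PT by 0.31 (SE 0.04, edgeR adjusted p = 6.36e-06), and without the low-count filter the rise did not pass (edgeR adjusted p = 0.0655). KDR, the main VEGFA receptor, rose in MDA-MB-231 from 3.48 ± 0.21 to 5.80 ± 0.91 CPM (0.73, SE 0.13, edgeR adjusted p = 0.00032).

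Among 12 relatives and partners of ANGPTL4, 5 were tested in MDA-MB-231 and 3 in SUM159PT. LPL, the lipase it inhibits, was at 2.99 ± 0.66 against 2.79 ± 0.49 CPM and at 5.03 ± 0.13 against 4.91 ± 0.32 CPM, and did not pass in either line (edgeR adjusted p = 0.684 and 0.903). ANGPTL6 was close to the limit of measurement in MDA-MB-231, at 0.15 ± 0.04 CPM with sgNTS and 0.62 ± 0.07 with sgYES1. It passed the low-count filter there only through the sgYES1 libraries, so only a rise could be called and its values are a description. LMF1, which LPL needs to mature, rose in MDA-MB-231, while LIPG, an endothelial lipase, fell by 0.38 (SE 0.10, edgeR adjusted p = 0.00815). The 30 PPAR targets and receptors, a pathway that also induces ANGPTL4 and PLIN2, had 5 rises and 6 falls among 27 tested in MDA-MB-231 and 4 rises and 6 falls among 27 in SUM159PT, shares of 40.7% and 37.0% beside 42.8% and 39.4% of all genes. Their median log2 fold change was -0.07 and 0.02, beside 0.01 and -0.01 over all genes. PPARG fell in MDA-MB-231 by 0.44 (SE 0.06, edgeR adjusted p = 2.79e-05), from 26.3 ± 0.36 to 19.4 ± 1.12 CPM. PDK4, a usual PPAR target, fell in SUM159PT by 0.90 (SE 0.19, edgeR adjusted p = 0.000678). Its level in MDA-MB-231 was higher with sgYES1, at 5.78 ± 0.61 CPM against 4.27 ± 0.56 with sgNTS, with no overlap.

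Paralogs of the members gave 5 rises and 2 falls among 17 tested in MDA-MB-231 and 6 rises and 2 falls among 16 in SUM159PT. These are shares of 41.2% and 50%, beside 42.8% and 39.4% of all genes. PLIN4 rose in both, by 1.15 (SE 0.23, edgeR adjusted p = 0.0012) in MDA-MB-231 and by 1.18 (SE 0.14, edgeR adjusted p = 8.43e-07) in SUM159PT, where PLIN2 had 16 counts or fewer per guide, and these effects differed by 0.02 (SE 0.44). PLIN3 rose in SUM159PT, from 211 ± 5.96 to 262 ± 15.2 CPM (0.32, SE 0.04, edgeR adjusted p = 7.43e-06). CA12, the more abundant surface carbonic anhydrase, rose in SUM159PT by 0.46 (SE 0.04, edgeR adjusted p = 8.05e-08) and fell in MDA-MB-231 by 0.17 (SE 0.04, edgeR adjusted p = 0.00536).

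The genes whose levels followed ANGPTL4 and ADM most closely were found as a description, by the smallest root mean square difference of log2 CPM over the 16 libraries, each gene taken relative to its own mean in each line, among 9885 genes of at least 5 CPM in each line. For ANGPTL4 they were SNAI1 (0.17 on the log2 scale), AKR1C1 (0.18), HMOX1 (0.20) and C3 (0.22). SNAI1, a transcription factor of the epithelial to mesenchymal transition, went from 2.81 ± 0.31 to 11.9 ± 1.37 CPM in MDA-MB-231 and from 4.83 ± 0.61 to 12.9 ± 1.21 CPM in SUM159PT. C3, a complement component, went from 23.2 ± 1.13 to 66.1 ± 5.51 CPM and from 360 ± 15.9 to 778 ± 35.7 CPM. The closest genes for ADM were SERPINE2 (0.14), ICAM1 (0.17), APOL3 (0.17) and VASN (0.17). ICAM1, an adhesion molecule for leukocytes, went from 140 ± 5.97 to 195 ± 11.8 CPM in MDA-MB-231 and from 32.5 ± 3.45 to 70.5 ± 7.20 CPM in SUM159PT, and SERPINE2, a protease inhibitor, from 24.8 ± 1.57 to 35.2 ± 0.90 CPM and from 2.51 ± 0.46 to 7.67 ± 0.95 CPM. Both were picked for their likeness to ADM, so their larger log2 effect in SUM159PT, by 0.63 (SE 0.10) for ICAM1 and by 1.10 (SE 0.15) for SERPINE2, is a description.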

How the data were processed

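For each line the authors deposited a gene-level count table of whole numbers, not normalized, together with a gene length used here for levels per kb. The submitters' processing notes name HISAT2 2.0.5, featureCounts 1.5.0-p3 and the build hg38. The sources used here do not state whether counting used strand. Columns were matched to samples by guide, replicate number and table.

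Guide effects were fitted per line (8 libraries, guide only), and line differences and interactions over all 16 libraries with 1 mean per group, with the quasi-likelihood test of edgeR 4.0.16 in R 4.3.3 (TMM, filterByExpr with smallest count 10 and total 15, Benjamini-Hochberg over all genes, threshold 0.05, two-sided). CPM use the TMM factors of all 16 libraries, and log2 CPM a prior count of 2. The genes and lists were chosen with earlier results of these data known: HIF machinery, HIF targets of glucose use, other HIF targets, PPAR targets, adrenomedullin partners, VEGF family, angiopoietin-like family, paralogs, and markers of leukocytes, endothelium, fibroblasts and the lines. Named genes are YES1, the 10 members, up to 4 genes per list with the smallest p, and 4 nearest genes each for ANGPTL4 and ADM; others are said to be chosen after their values were seen, or are receptors and enzymes of a listed pathway given with their levels (CALCRL, RAMP2, RAMP3, LPL, VHL, EGLN1, EGLN2). One gene that this rule names is not reported here and counts only within its list. Alternatives were DESeq2 1.42.0, RLE scaling, library totals, no low-count filter, the replicate number as a block, the 8 sgNTS libraries alone for the lines, and each library left out. No pair of replicates matched within sampling noise (their chi-square divided by degrees of freedom was 2.33 or more). MDA-MB-231 sgNTS replicate 4 stood apart, at 29.1, 19.6 and 9.38 against replicates 1, 2 and 3 of its group. All other pairs of the series were at 6.81 or less. On simulated data with genes changed 1.5-fold or 2-fold, the recovered share was 85.9% (of 99 genes) and 91.8% (of 97) in MDA-MB-231. It was 86.9% (of 99) and 98.0% (of 98) in SUM159PT, and 57.6% (of 99) and 73% (of 100) for the interaction, the difference of guide effects between lines. The simulation gave every gene the same spread between replicates and changed few genes, with no library apart. Its shares are a check of the code and not the power of the fits to the data.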

Additional observations from a re-analysis of the deposited data

Results flagged for a closer look

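VEGFA was higher with sgYES1 in all 4 MDA-MB-231 libraries and lower in all 4 SUM159PT libraries, and subtracting the MDA-MB-231 effect from the SUM159PT effect gave -1.26 on the log2 scale. This difference was not tested, since the guide contrast chose the genes.

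Single libraries stood apart from the other 3 of their group in 2 of 44 groups checked, where chance gives about 1 in 20. They were CA9 in SUM159PT sgYES1 replicate 4, at 3.05 CPM, and PLIN2 in MDA-MB-231 sgNTS replicate 4, at 90.1 CPM, the library with the lowest mitochondrial share of its group.

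For 30 genes named from the lists, the guide effect differed between lines by the interaction term of edgeR. The values that follow are the SUM159PT effect less the MDA-MB-231 effect on the log2 scale, each with its edgeR adjusted p. In the HIF machinery the difference was -0.50 for EPAS1 (adjusted p 2.13e-05), -0.28 for SIAH2 (0.0248), -0.28 for CITED2 (0.00233) and -0.38 for P4HTM (0.00583). In glucose use it was 0.28 for PGAM1 (0.00031), 0.17 for LDHA (0.0191), 0.22 for PGK1 (0.00135), 0.27 for PFKFB3 (0.00553) and 0.24 for SLC16A3 (0.00277). Among other HIF targets it was -0.36 for HMOX1 (0.0303), -0.27 for LOXL2 (0.00142), -2.75 for STC2 (4.09e-07), -2.14 for DDIT4 (9.58e-12) and 0.48 for JMJD6 (3.64e-05). HMOX1 thus rose less in SUM159PT, while remaining higher with sgYES1 in all 8 libraries.

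In the PPAR list the difference was 0.37 for PPARG (0.00244), -1.42 for PPARGC1A (3.45e-07), -0.23 for ACSL3 (0.0116), 0.33 for RXRA (0.00113) and -1.35 for PDK4 (0.000209). PPARGC1A, a coactivator of PPAR receptors, rose in MDA-MB-231 from 3.18 ± 0.56 to 6.22 ± 0.31 CPM and fell in SUM159PT from 16.6 ± 0.63 to 11.9 ± 1.46 CPM. Among partners of the secreted members it was -1.74 for ADM2 (2.95e-05), -1.01 for KDR (0.000964), 0.96 for VEGFC (6.74e-06), -0.45 for NRP1 (2.28e-06), 2.23 for PGF (2.25e-05), -0.76 for NRP2 (5.5e-05), -1.75 for ANGPTL6 (0.00995) and -0.84 for LMF1 (0.0248). Among paralogs it was -0.56 for PFKFB2 (0.00294), 0.62 for CA12 (1.63e-07) and 0.40 for PLIN3 (2.13e-05). NRP1, CA12 and PPARGC1A, for example, passed the threshold in opposite directions in the lines.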

How the results depend on the processing

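The counts of further HIF genes and of members that differ between lines stayed within 1.5 times their value under every alternative run, and no direction of a test reversed. Leaving out each library gave 15 to 20 rises and 16 to 20 falls of further HIF genes in MDA-MB-231, and 13 to 17 rises and 20 to 27 falls in SUM159PT, with 4 members higher and 5 lower between lines throughout, PLIN2 among the latter through the filter. Among members, whose guide effect is a description, further ones passed the threshold in MDA-MB-231 under some settings: BNIP3 with no low-count filter and also when sgNTS replicate 4 was left out, HIF1A without sgYES1 replicate 2, PFKFB4 without sgNTS replicate 1 or with library totals alone, and EGLN3 with library totals alone. In SUM159PT HIF1A passed with the replicate block and without sgNTS replicate 2 or sgYES1 replicate 1, and CA9 without sgYES1 replicate 4. There BNIP3 did not pass with library totals alone or without sgNTS replicate 2 or 4 or sgYES1 replicate 2, and PFKFB4 did not pass without sgNTS replicate 3. Calls lost under some alternative were those of ANGPTL2, ARNT2, VEGFC and NRP1 in MDA-MB-231 and of RAMP1 in SUM159PT. The cause was not tested. Depth limits CA9 and, in SUM159PT, PLIN2 and PFKFB4.

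Same-numbered libraries of both guides correlated at -0.27, 0.10, 0.03 and -0.14 in MDA-MB-231 and at 0.09, 0.03, 0.08 and 0.05 in SUM159PT. In neither line did every library correlate best with its own number. In SUM159PT the only exception was sgNTS replicate 2, at 0.04 with sgYES1 replicate 4. The numbers were not taken to pair the libraries, though these values do not exclude a weak pairing in SUM159PT. With the replicate number as a block, further HIF genes gave 16 rises and 17 falls in MDA-MB-231 and 14 rises and 28 falls in SUM159PT, and all genes past the threshold went from 6607 to 5901 and from 5701 to 5886. The rise of ARNT2 in MDA-MB-231 did not pass with the block (edgeR adjusted p = 0.0797).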
